A study of Mus musculus with 8 samples.

Results

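The Hes and Hey genes encode basic helix-loop-helix repressors, and 6 of them were examined: *Hes1*, *Hes5*, *Hes6*, *Hey1*, *Hey2* and *Heyl*. They were taken by name as a group, with no measured value used in the choice, and make up 6 of the 36536 genes with a count. When a Notch receptor is activated by a ligand on a neighbouring cell, its inner part is cut free, enters the nucleus and joins the DNA-binding protein RBPJ, and Hes and Hey genes are the classic targets switched on by this complex. Their products bind DNA as dimers and, with Groucho-type corepressors, silence target genes. In the organ of Corti they are known for keeping supporting cells from becoming hair cells, in part by holding back the hair cell factor *Atoh1*. *Hes6* differs from the rest, since it is known to oppose *Hes1* and to be expressed in hair cells.

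The cells came from Lfng-GFP mice, a BAC transgenic line (B6;FVB-Tg(Lfng-EGFP)HM340Gsat/Mmucd) in which GFP is driven by regulatory sequence of *Lfng*, itself a Notch glycosyltransferase gene. Cochleas were taken at postnatal day 1 (P1) or 6 (P6), dissociated without culture or treatment, and sorted into the brightest GFP+ cells and GFP- cells. Age and fraction give 4 groups, each with 2 replicate libraries. All 4 groups carry the transgene. By the study's description the transgene marks border, inner phalangeal, outer pillar and Deiters' cells and leaves inner pillar cells unmarked, so the GFP+ fraction is most but not all supporting cells. At P6 the lateral wall was only partly removed and the duct was cut from the modiolus, where at P1 it was peeled away, so age and dissection cannot be told apart. Nothing in the labels says that the replicates came from separate animals, so p-values measure the spread between these libraries.

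The libraries held 17769024 to 67695039 counts on genes, with the fewest in P6 GFP+ replicate 1. The label of the GFP+ fraction was checked with 8 supporting cell markers, of which 7 were higher in GFP+ than in GFP- cells at both ages, while the remaining one, *Slc1a3*, was lower at P1 and did not pass the test at P6. Of 8 hair cell markers 5 were also higher in GFP+ cells at each age, and the summed level of the 8 was 722 and 841 CPM (counts per 1000000 counts on genes) in P1 GFP+ libraries, 447 to 479 in P1 GFP-, 452 and 523 in P6 GFP+ and 352 to 390 in P6 GFP- libraries. P6 GFP+ replicate 2 stood apart: across 773 genes whose P1 level was more than 16-fold higher in GFP- cells, it was above replicate 1 by a median log2 of 0.97. Its 7 endothelial markers summed to 266 CPM against 83.9 in replicate 1, and its 6 Schwann cell markers to 2263 against 943, both above the 2 P6 GFP- libraries (154 and 164 CPM, 1405 and 1649 CPM). All 6 Hes and Hey genes were lower in this library than in P6 GFP+ replicate 1, with ratios from 0.737 for *Hes5* to 0.961 for *Heyl*. The P1 GFP- libraries also differed, with 6 neuron markers summing to 531 CPM in replicate 2 against 159 in replicate 1. *Hes1*, *Hes5*, *Hey1* (28.8 against 15.7 CPM), *Hey2* and *Heyl* were higher in P1 GFP- replicate 2, and *Hes6* was not (23.5 against 23.6 CPM).

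RBPJ recognizes short sites whose core reads TGGGAA, often extended to GTGGGAA, and the promoters of *Hes5* and *Hey2* show how such letters lie near the start of a Notch target. Of the 6 genes, 3 matched a RefSeq promoter window (GRCm38.p6, 250 bases before to 50 after the start, 1 window each for *Hes5* and *Hey2* and 2 for *Hes6*). Both strands were searched in the whole window, and the 260 bases from the first base to the base 10 after the start are printed 5′ to 3′ along the gene, with the 6 bases of each TGGGAA match in capitals, read as TTCCCA where the match is on the other strand. The *Hes5* window printed is chr4:154960673-154960932 on the plus strand, and that of *Hey2* is chr10:30842774-30843033 on the minus strand.
Hes5: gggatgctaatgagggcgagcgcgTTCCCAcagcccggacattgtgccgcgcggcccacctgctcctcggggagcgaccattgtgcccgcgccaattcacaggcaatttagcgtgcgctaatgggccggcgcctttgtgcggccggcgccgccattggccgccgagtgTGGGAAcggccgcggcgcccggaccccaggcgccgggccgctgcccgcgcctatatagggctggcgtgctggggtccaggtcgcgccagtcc
Hey2: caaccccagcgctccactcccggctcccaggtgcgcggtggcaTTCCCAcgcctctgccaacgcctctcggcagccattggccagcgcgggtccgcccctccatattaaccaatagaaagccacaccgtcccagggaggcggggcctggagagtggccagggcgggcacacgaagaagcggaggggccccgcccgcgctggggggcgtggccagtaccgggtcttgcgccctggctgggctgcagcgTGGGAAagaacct

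Each of these windows held 2 matches, 1 on either strand, and every match also had the letters of the longer form. In *Hes5* the longer matches ran from base -226 to -220 and from -83 to -77, counted from the start with no base 0. In *Hey2* they ran from -207 to -201 and from -4 to 3, the latter across the start itself. Among 32851 windows of the same length, 25.6% held TGGGAA at least once and 3.79% held it 2 or more times, while GTGGGAA, whose matches are contained in those of TGGGAA, was present in 6.38% and present 2 or more times in 0.256%. Neither *Hes6* window held either form. One *Hes6* window held the N box CACNAG, a site bound by Hes proteins, on each strand. Of all windows 42.5% held at least 1 and 11.3% held 2 or more. A match of letters is a description of the window and says nothing about binding in these cells.

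*Hes5* (chromosome 4, 154335032 to 154336480 on NCBIM37, plus strand) is a direct Notch target of supporting cells, in particular Deiters' cells. Its level was 121 and 199.6 CPM in the P1 GFP+ libraries, 0.343 and 0.761 in P1 GFP-, 22.1 and 16.3 in P6 GFP+, and 0.130 and 0.0886 in P6 GFP- libraries. No groups overlapped, and the P1 GFP+ libraries were the highest, the P6 GFP- libraries the lowest. With 2 libraries per group, a lack of overlap is a description and not a test, here and below. The P6 GFP- level rests on 8 and 6 counts. An antisense gene, not analysed here, overlaps *Hes5* in the annotation, and the library kit does not mark strand, so reads of both cannot be told apart.

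*Hey1* (chromosome 3, 8663362 to 8667039, minus strand) encodes a repressor also known from blood vessels. It measured 530 CPM in both P1 GFP+ libraries, 15.7 and 28.8 in P1 GFP-, 293 and 222 in P6 GFP+, and 65.0 and 53.1 in P6 GFP- libraries. No groups overlapped, and the GFP- libraries were higher at P6 than at P1 while the GFP+ libraries were lower. *Hey2* (chromosome 10, 30552165 to 30562607, minus strand) is known in pillar cells, where FGF signaling can keep it on without Notch. Its level was 180 and 173 CPM in P1 GFP+, 12.7 and 16.3 in P1 GFP-, 190.5 and 161 in P6 GFP+, and 16.8 and 17.4 in P6 GFP- libraries. The GFP+ libraries of the 2 ages overlapped, and all 4 lay far above the GFP- libraries. *Heyl* (chromosome 4, 122910799 to 122927118, plus strand) encodes the third Hey protein, also known from smooth muscle. It measured 268 and 258 CPM in P1 GFP+, 47.8 and 56.3 in P1 GFP-, 466 and 448 in P6 GFP+, and 31.2 and 33.7 in P6 GFP- libraries. Both P6 GFP+ libraries lay above all others, and its groups did not overlap.

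*Hes1* (chromosome 16, 30064470 to 30067882, plus strand) is a broadly expressed repressor used in many progenitor cells. It was at 40.1 and 43.6 CPM in P1 GFP+, 16.0 and 19.3 in P1 GFP-, 36.8 and 29.3 in P6 GFP+, and 18.9 and 17.8 in P6 GFP- libraries. Both GFP+ groups lay above both GFP- groups, which overlapped with each other. *Hes6* (chromosome 1, 93308060 to 93310615, minus strand) had the smallest difference in CPM between its highest and lowest library among the 6 genes, at 28.4 and 36.2 CPM in P1 GFP+, 23.6 and 23.5 in P1 GFP-, 14.9 and 12.3 in P6 GFP+, and 16.5 and 16.4 in P6 GFP- libraries. Its libraries were separated by age more than by fraction, with all 4 P1 libraries above all 4 P6 libraries.

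**Figure D1:**
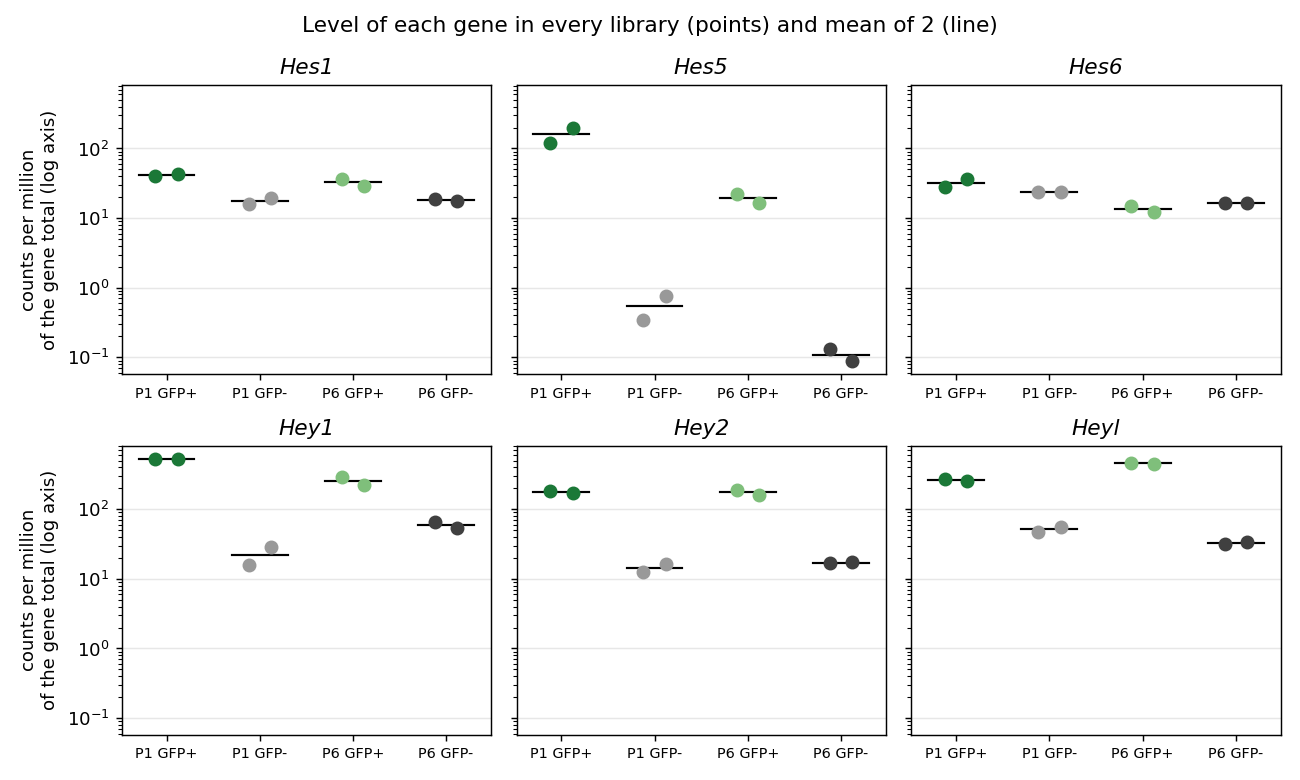
Level of each Hes and Hey gene in CPM of the gene total on a log axis, with 1 point per library and a line at the mean of the 2 libraries of each group. *Hes5* spans from 0.0886 to 199.6 CPM, *Hes6* from 12.3 to 36.2 CPM, and both P6 GFP+ points of *Heyl* lie above its other points.

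To compare the genes with each other, the CPM was divided by exon length in kilobases (RPKM). In P1 GFP+ cells the order was *Hey1* (241 ± 0.0412 RPKM, SD, n = 2), *Hes5* (118 ± 40.5), *Hey2* (69.2 ± 1.92), *Heyl* (51.5 ± 1.41), *Hes1* (20.5 ± 1.23) and *Hes6* (17.9 ± 3.06), and only *Hes1* and *Hes6* overlapped as neighbours. In P6 GFP+ cells the order was *Hey1* (117 ± 22.7), *Heyl* (89.4 ± 2.52), *Hey2* (68.9 ± 8.26), *Hes1* (16.2 ± 2.62), *Hes5* (14.1 ± 3.02) and *Hes6* (7.53 ± 1.01), with *Hes1* and *Hes5* overlapping. *Hes5* thus stood above *Hey2*, *Heyl* and *Hes1* at P1 and below them at P6, and *Heyl* stood below *Hey2* at P1 and above it at P6. In GFP- cells no gene stood far above the others at P1, where *Hes6* came first (13.0 ± 0.0631), ahead of *Heyl* (10.2 ± 1.18), *Hey1* (10.1 ± 4.22) and *Hes1* (8.68 ± 1.14), which overlapped as neighbours, and then *Hey2* (5.68 ± 1.01). At P6 *Hey1* was first in GFP- cells (26.8 ± 3.82), followed by *Hes6* (9.10 ± 0.0606) and *Hes1* (9.02 ± 0.384), which overlapped, then *Hey2* (6.70 ± 0.164) and *Heyl* (6.35 ± 0.350), which overlapped too. *Hes5* was last in GFP- cells at both ages, at 0.405 ± 0.217 and 0.0801 ± 0.0213 RPKM.

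As a share of the summed RPKM of the 6 genes, *Hes5* made up 22.5 ± 6.03% in P1 GFP+ and 4.48 ± 0.389% in P6 GFP+ cells. *Heyl* went the other way, from 9.99 ± 1.08% to 28.7 ± 2.88%, and *Hey2* from 13.4 ± 1.45% to 22.0 ± 0.184%. *Hey1* held the greatest share at both ages, at 46.6 ± 3.74% and 37.2 ± 2.49%. The share of the 3 Hey genes in GFP+ cells was therefore the larger one at both ages, and most of the shift between the ages lay in *Hes5* and *Heyl*. The summed level of the 6 genes was 1205 ± 51.3 CPM in P1 GFP+ and 956 ± 95.3 CPM in P6 GFP+ cells, against 131 ± 20.4 and 144 ± 7.14 CPM in GFP- cells.

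**Figure D2:**
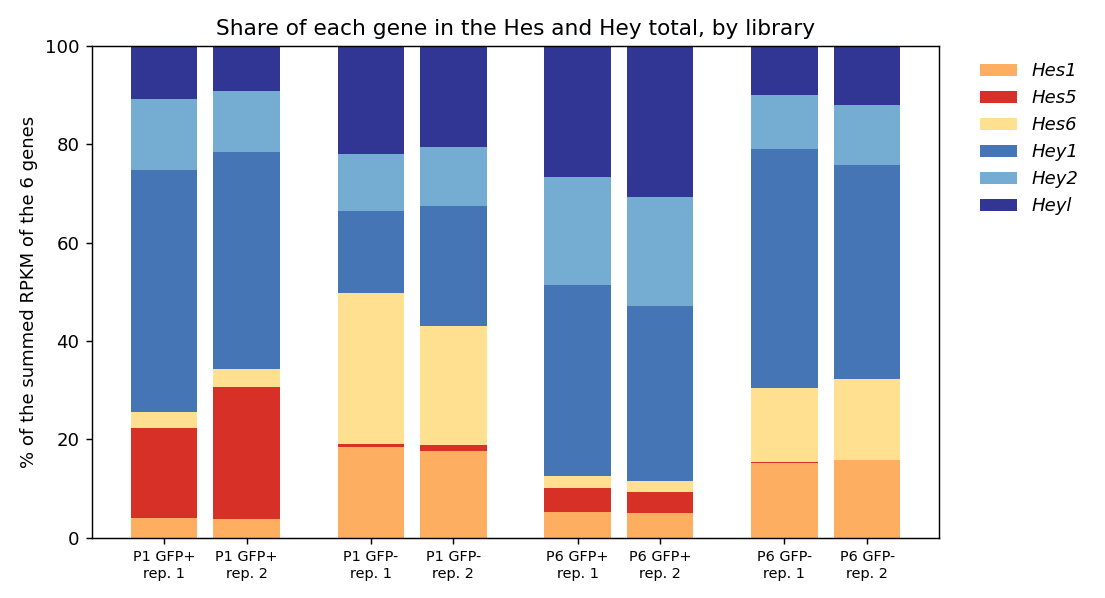
Share of each gene in the summed RPKM of the 6 Hes and Hey genes, in percent, with 1 bar per library and 2 libraries per group. In GFP+ cells the *Hes5* share is 22.5% on average at P1 and 4.48% at P6, and that of *Heyl* is 9.99% and 28.7%.

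At P1, the comparison of GFP+ with GFP- cells asks which genes are enriched in the GFP+ fraction. Of the 8 hair cell markers 5 were higher in that fraction too, 3 of them more than 4-fold. *Hes5*, *Hey1*, *Hey2*, *Heyl* and *Hes1* were higher in GFP+ cells, and *Hes6* did not pass the test. The test was edgeR's quasi-likelihood test after TMM normalization, and a gene passed when p and the Benjamini-Hochberg adjusted p over all genes tested were below 0.01. Of the 6 genes 5 passed in the higher direction, where 16.6% of the 18682 genes tested did and 37.3% passed in either direction, and 4 were also changed more than 4-fold, the study's further criterion, against 6.46% of all genes. The median log2 fold change of the 6 genes was 3.08, and that of all genes tested was 0.0075. In bulk samples such as these, fewer cells of a type and less RNA per cell cannot be told apart.

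*Hey1* was 25.5-fold higher in P1 GFP+ cells (log2 fold change 4.67, SE 0.30, adjusted p = 8.13e-05 by edgeR). *Hey2* was 13.1-fold higher (3.71, SE 0.15, adjusted p = 1.83e-05 by edgeR) and *Heyl* 5.44-fold higher (2.44, SE 0.11, adjusted p = 3.03e-05 by edgeR). *Hes5* had the steepest difference of the 6 genes (8.17, SE 0.39, adjusted p = 3.03e-05 by edgeR), at rank 11 of the 18682 genes by log2 fold change, where *Hey1* stood at rank 181, *Hey2* at 356 and *Heyl* at 964. The level in GFP- cells was 0.344% of that in GFP+ cells for *Hes5*, 4.20% for *Hey1*, 8.21% for *Hey2* and 19.8% for *Heyl*, beside 0.941% for *Lfng* and 4.63% for the supporting cell marker *Sox2*. *Hes1* passed the test with a smaller difference of 2.54-fold (log2 fold change 1.34, SE 0.13, adjusted p = 0.000340 by edgeR). *Hes6* measured a log2 fold change of 0.55 (SE 0.13, adjusted p = 0.0144 by edgeR), and it passed the DESeq2 test (adjusted p = 0.00513). Without P1 GFP- replicate 1 or without P1 GFP- replicate 2, the log2 fold change of *Hes6* was 0.53 in each fit. It was 0.70 without P1 GFP+ replicate 1 and 0.41 without P1 GFP+ replicate 2. Each of these fits leaves 1 library in a group.

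At P6, 4 of the 6 genes were higher in GFP+ cells, all of them more than 4-fold, where 12.9% of the 18294 genes tested passed in either direction, 7.72% in this direction and 4.88% in this direction with the fold change. These were *Hes5*, *Hey1*, *Hey2* and *Heyl*. *Hes5* had a log2 fold change of 7.43 (SE 0.39, adjusted p = 0.000673 by edgeR). *Heyl* was 14.0-fold higher (log2 fold change 3.81, SE 0.19, adjusted p = 0.000645 by edgeR) and *Hey2* 10.2-fold higher (3.36, SE 0.18, adjusted p = 0.000719 by edgeR). *Hey1* was 4.35-fold higher (2.12, SE 0.23, adjusted p = 0.00298 by edgeR), just beyond the 4-fold criterion, and at 1.94 without P6 GFP+ replicate 1 and 1.97 without P6 GFP- replicate 2 it lay below it. By glmTreat, which tests against the 4-fold change itself, 3 of the 6 genes passed. The GFP- level was 7.11% of the GFP+ level for *Heyl*, 9.73% for *Hey2* and 22.9% for *Hey1*, while for *Hes5* it was 0.568%. *Hes1* did not pass, with a log2 fold change of 0.84 (SE 0.19, adjusted p = 0.0237 by edgeR), but it passed the DESeq2 test (adjusted p = 0.00523). *Hes6* measured -0.28 (SE 0.20, adjusted p = 0.332 by edgeR). The median of the 6 genes was 2.74 and that of all genes -0.02.

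The P6 result depends on the libraries kept. *Hes1* was at a log2 fold change of 1.02 without P6 GFP+ replicate 2, the library with more endothelial and Schwann cell markers. Without P6 GFP+ replicate 1 it was at 0.70, beside 0.84 with all 4 libraries. Either fit leaves 1 library in the P6 GFP+ group, so the spread of that group is not measured. Without P6 GFP- replicate 1, *Hey1* no longer passed (2.34, adjusted p = 0.0169 by edgeR). Without P6 GFP- replicate 2, 0 of the genes tested passed by edgeR, and 4 of the 6 genes had an unadjusted p below 0.05. Their log2 fold changes were then 7.15 for *Hes5*, 3.85 for *Heyl*, 3.36 for *Hey2* and 1.97 for *Hey1*, with adjusted p from 0.0124 to 0.0345 by edgeR. By the DESeq2 test on all 4 libraries, 5 of the 6 genes passed, where 4891 genes passed in all, beside 2363 by edgeR.

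**Figure D3:**
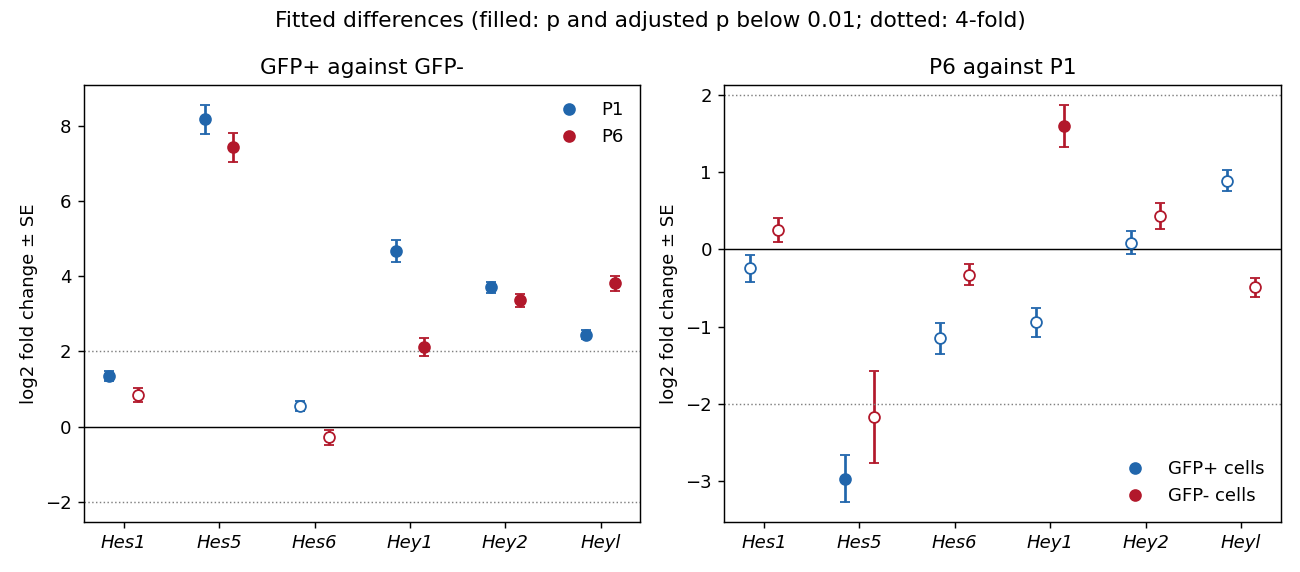
Fitted log2 fold changes with standard errors, GFP+ against GFP- cells at each age on the left and P6 against P1 in each fraction on the right, from edgeR fits with 2 libraries per group. Filled points passed the test, open points did not, and dotted lines mark 4-fold. On the left, *Hey1* is at 4.67 at P1 and 2.12 at P6, and *Heyl* at 2.44 and 3.81.

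A fit of all 8 libraries tested whether these ratios differed with age, through an interaction term given as the P6 log2 ratio of GFP+ to GFP- cells minus the P1 log2 ratio. *Heyl* passed, with a difference of 1.35 (SE 0.19, adjusted p = 0.00702 by edgeR), where 1.93% of the 19233 genes tested passed in either direction and 0.946% passed with a higher ratio at P6. For *Heyl*, GFP+ libraries were higher and GFP- libraries lower at P6 than at P1. *Hey1* had the opposite sign and a larger difference of -2.57 (SE 0.41), which did not pass (adjusted p = 0.0110 by edgeR) but passed the DESeq2 test (adjusted p = 2.54e-07), with a range of 5.69e-21 to 0.0630 over 13 alternatives. *Hes6* measured -0.85 (SE 0.24, adjusted p = 0.0813 by edgeR), *Hes1* -0.52 (SE 0.24), *Hey2* -0.36 (SE 0.23) and *Hes5* -0.78 (SE 0.75), none of which passed (adjusted p of 0.277 or above for the last 3 by edgeR). *Hes5* had 61 counts in P1 GFP- and 14 in P6 GFP- cells, and its P1 GFP+ libraries were at 121 and 199.6 CPM. The source of its wide error was not tested. The *Heyl* call was lost when any of 6 libraries was left out, those of P1 GFP+, P1 GFP- and P6 GFP- cells (adjusted p from 0.0115 to 0.0606 by edgeR, difference from 1.32 to 1.51). *Hey1* was at -2.81 without P6 GFP+ replicate 1 and -2.36 without P6 GFP+ replicate 2. Over all fits with a library left out, *Hey1* ranged from -2.99 without P1 GFP- replicate 2 to -2.16 without P1 GFP- replicate 1. Each of these fits leaves 1 library in a group.

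From P1 to P6, 1 of the 6 genes passed the test in GFP+ cells. *Hes5* fell 7.82-fold (log2 fold change -2.97, SE 0.30, adjusted p = 0.00560 by edgeR), where 4.81% of the 17213 genes tested passed in either direction, 1.95% in the lower direction and 0.93% also by more than 4-fold. It ranked 120 from the lowest log2 fold change. The values of the other genes were 0.89 for *Heyl* (SE 0.14, adjusted p = 0.0142 by edgeR), -0.94 for *Hey1* (SE 0.19, adjusted p = 0.0288 by edgeR) and -1.15 for *Hes6* (SE 0.20, adjusted p = 0.0202 by edgeR). *Heyl*, *Hey1* and *Hes6* passed the DESeq2 test, by which 3 of the 6 genes were lower and 1 higher at P6. By that test 3037 genes passed in all, beside 828 by edgeR. *Hey2* was at 0.09 (SE 0.15, adjusted p = 0.704 by edgeR), a sign that turned to -0.0077 with library totals in place of TMM. *Hes1* was at -0.25 (SE 0.17, adjusted p = 0.339 by edgeR). The median of the 6 genes was -0.60 and that of all genes tested was -0.0024.

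The P6 GFP+ library with more markers of other cell types was among these. Without P6 GFP+ replicate 2, the log2 fold changes were -2.73 for *Hes5*, -0.98 for *Hes6*, -0.73 for *Hey1*, 0.95 for *Heyl*, -0.06 for *Hes1* and 0.23 for *Hey2*. Without P6 GFP+ replicate 1 they were -3.23, -1.32, -1.19, 0.83, -0.45 and -0.07 in the same order. Either fit leaves 1 library in the P6 GFP+ group, so the spread of that group is not measured. Over the same comparison the 7 endothelial markers summed to 39.1 and 41.3 CPM at P1 and 83.9 and 266 CPM at P6, and 0 of them passed the test by edgeR (all 7 had an unadjusted p below 0.05 and passed as higher by DESeq2). The 6 pericyte and smooth muscle markers summed to 16.9 and 17.5 CPM and to 67.7 and 186 CPM, and 1 of them passed as higher. *Heyl* was 466 CPM in the library with the lower sums and 448 CPM in that with the higher sums. Of the 8 hair cell markers 2 passed as lower at P6 and 6 did not pass, and *Atoh1* was at 7.62 and 9.48 CPM in P1 GFP+ and 0.844 and 1.04 CPM in P6 GFP+ libraries. The part of hair cells in the values of *Hes6* was not tested, nor was that of endothelial, pericyte and smooth muscle cells in those of *Hey1* and *Heyl*.

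In GFP- cells, *Hey1* rose 3.03-fold from P1 to P6 (log2 fold change 1.60, SE 0.27, adjusted p = 0.00962 by edgeR), the only member of the group to pass, where 7.38% of the 18920 genes tested passed in either direction and 5.04% in this one. *Hes5* was at -2.17 (SE 0.60, adjusted p = 0.0468 by edgeR), resting on 61 counts at P1 and 14 at P6, and *Heyl* at -0.49 (SE 0.12, adjusted p = 0.0362 by edgeR). *Hes1* (0.25), *Hes6* (-0.33) and *Hey2* (0.43) did not pass, with adjusted p of 0.124 or above by edgeR. The median of the 6 genes was -0.04, beside -0.02 for all genes. *Hey1* was at 1.22 without P1 GFP- replicate 1 and at 2.09 without P1 GFP- replicate 2. The *Hey1* call was close to the threshold and was lost with all 8 libraries in the fit (adjusted p = 0.0112 by edgeR), with library totals in place of TMM (adjusted p = 0.0208 by edgeR), without P6 GFP- replicate 1 (1.42, adjusted p = 0.0646 by edgeR) and without P6 GFP- replicate 2 (1.77, adjusted p = 0.0289 by edgeR). Vessel and supporting cell transcripts were measured beside *Hey1*, and the part of these cells in its values was not tested. The 7 endothelial markers summed to 132 and 131 CPM in P1 GFP- and 164 and 154 CPM in P6 GFP- libraries, with 1 passing as higher. The 6 pericyte and smooth muscle markers summed to 219 and 221 CPM and to 355 and 461 CPM, with 2 passing as higher. *Sox2* was at 20.2 and 35.6 CPM in P1 GFP- and 41.2 and 34.7 CPM in P6 GFP- libraries, and the 8 supporting cell markers summed to 674 and 726 CPM at P1 and 801 and 732 CPM at P6. The *Hey1* level at P6 was 265% of that at P1, and those of the 8 markers ranged from 24.7% for *Prox1* to 211% for *Gjb2*, with 1 of the 8 (*Gjb6*, at 209%) passing the test as higher.

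Within the Notch pathway, 58 other genes were listed by their roles, and at P1 21 of the 52 tested were higher in GFP+ cells and 10 lower. Of all genes tested at P1, 16.6% passed as higher and 37.3% passed in either direction. Among the 4 receptors, *Notch1* (log2 fold change 2.14) and *Notch3* (2.03) were higher and *Notch2* (-3.28) and *Notch4* (-2.66), the latter known from blood vessels, were lower. Of 5 ligands 3 were higher, with *Jag1* at 4.31. Of 5 glycosyltransferases, which add sugars to Notch receptors and so tune their response to ligands, *Lfng* (6.83) and *Mfng* (2.67) were higher. The sort was on GFP driven by regulatory sequence of *Lfng*, so its difference is not independent of the gate. Of 8 inhibitors and feedback genes 4 were higher and 1 lower, and *Nrarp* (4.41), a Notch target that damps the signal, had the greatest difference. Of 11 genes for the nuclear complex and its corepressors 1 was higher and 4 lower, among them *Tle2* (-2.51), a Groucho corepressor.

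At P6, 10 of the 52 tested were higher in GFP+ cells and 2 lower, with *Jag1* (4.11), *Lfng* (6.36), *Mfng* (2.35) and *Nrarp* (2.68) past the 4-fold criterion. Of all genes tested at P6, 7.72% passed as higher and 12.9% passed in either direction. In the pattern of the P1 against the P6 values, *Nrarp* lay near *Hey1* and below the line of equal values. The interaction for *Nrarp* was -1.75 (SE 0.35, adjusted p = 0.0257 by edgeR) and did not pass. *Nrarp* was 122 and 138 CPM in P1 GFP+, 4.70 and 8.27 in P1 GFP-, 61.2 and 50.1 in P6 GFP+, and 8.35 and 8.98 in P6 GFP- libraries. Like *Hey1*, it was lower at P6 in GFP+ libraries and higher in GFP- libraries, with no overlap. In GFP- cells its change with age did not pass the test (0.60, adjusted p = 0.177 by edgeR). *Nrarp* was not tested against *Hey1*.

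**Figure D4:**
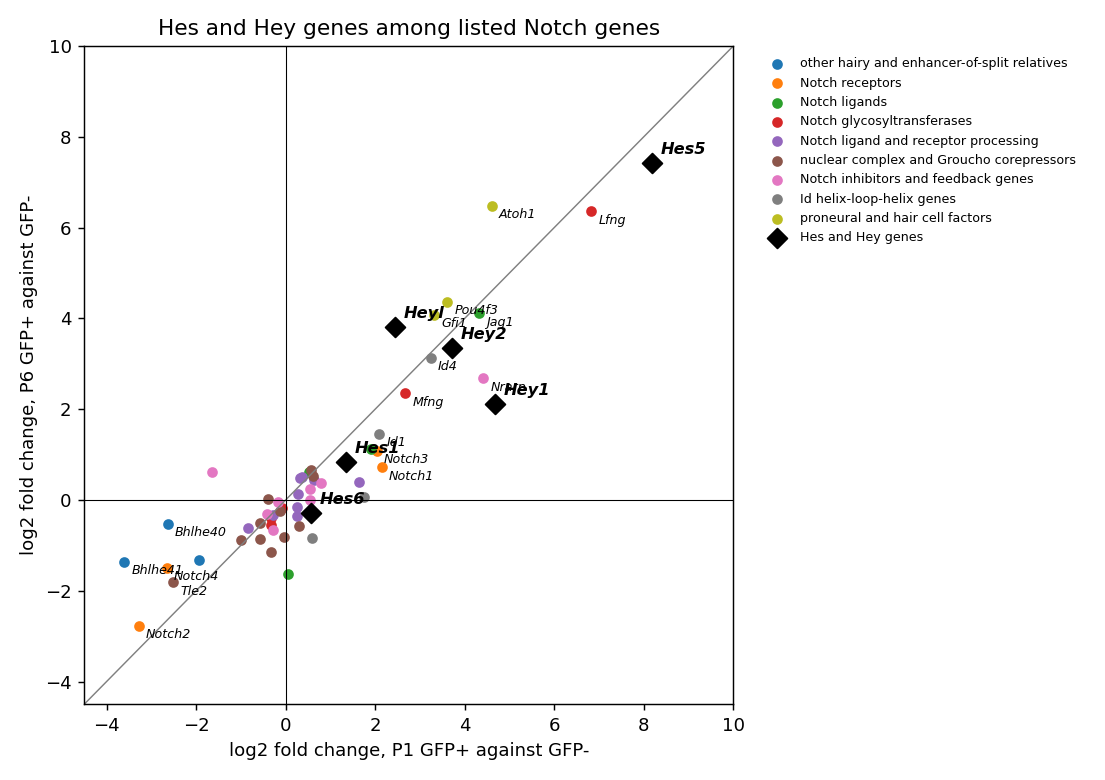
Log2 fold change of GFP+ against GFP- cells at P1 (x axis) and at P6 (y axis) for the Hes and Hey genes (diamonds) and the listed genes of the Notch pathway tested at both ages (circles, coloured by role), with the line of equal values. Genes past the study's criteria at either age are named. *Hey1* lies below the line (4.67 and 2.12) and *Heyl* above it (2.44 and 3.81).

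Of 6 other hairy and enhancer-of-split relatives, *Hes2*, *Hes3* and *Hes7* were at most 1.11 CPM in any library. *Bhlhe40* and *Bhlhe41*, known from circadian and stress responses, were lower in GFP+ cells at P1 (log2 fold changes -2.63 and -3.61). Both rose from P1 to P6 in GFP+ cells, *Bhlhe40* by 4.09 (SE 0.17, adjusted p = 0.00176 by edgeR) and *Bhlhe41* by 3.26 (SE 0.33, adjusted p = 0.00562 by edgeR). *Bhlhe40* was at 6.52 and 6.23 CPM in P1 GFP+ and 111 and 93.8 CPM in P6 GFP+ libraries. The 4 Id genes, whose products dimerize with other helix-loop-helix proteins without binding DNA, were all higher in GFP+ cells at P1, whereas *Id4* alone passed at P6 (3.13, beside 3.24 at P1). Of 6 proneural and hair cell factors, *Atoh1* (4.61), *Gfi1* (3.32) and *Pou4f3* (3.61) were higher in GFP+ cells at P1, and in GFP+ cells *Atoh1* fell from P1 to P6 (-3.07, SE 0.29, adjusted p = 0.00457 by edgeR).

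From P1 to P6 in GFP+ cells, 4.81% of all genes tested passed in either direction and 1.95% passed as lower. Of the 51 pathway genes tested 2 rose and 2 fell. Beside *Bhlhe40*, *Bhlhe41* and *Atoh1* these included *Notch3* (-1.16, adjusted p = 0.00931 by edgeR), named after its values were seen. In GFP- cells 7 of 54 rose and 0 fell by edgeR, while 9 had an unadjusted p below 0.05 in the lower direction and 1 was lower by DESeq2. Of all genes tested in GFP- cells, 5.04% passed as higher and 7.38% passed in either direction by edgeR. Of the 5 ligands 0 passed in GFP+ cells by edgeR, 3 had an unadjusted p below 0.05 in the lower direction, and 2 were lower by DESeq2.

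For each Hes and Hey gene, the genes with the most similar pattern over the 8 libraries were sought among 12465 genes with a mean of at least 5 CPM, by the root-mean-square (RMS) difference of log2(CPM + 1) values centred on each gene's mean. For *Hes1* they were *Atf6b* (RMS difference 0.06), *Agpat2* (0.08) and *Cmas* (0.09). For *Hes6* they were *Pcbd1* (0.12), *Lrfn4* (0.12) and *Neurl1a* (0.14). *Hey2* was nearest to *Rab25* (0.17), *Aqp11* (0.18) and *Kcnh8* (0.20), and *Heyl* to *Kif19a* (0.16), *Efhd1* (0.20) and *3830431G21Rik* (0.21). *Kif19a* measured 162 CPM on average in P1 GFP+, 39.7 in P1 GFP-, 305 in P6 GFP+ and 24.5 in P6 GFP- cells. For *Hey1* the nearest were *Rhbdl2* (0.27), *F2rl1* (0.27) and *Slc22a3* (0.30). Each was higher on average in P6 GFP- than in P1 GFP- cells, a trait that the choice by pattern favours. *Hes5* had no gene as near, with *Rab3b* at 0.45, *Trhr* at 0.50 and *Cyp26b1* at 0.50. *Cyp26b1*, an enzyme that breaks down retinoic acid, measured 1954 CPM on average in P1 GFP+, 36.5 in P1 GFP-, 329 in P6 GFP+ and 27.3 in P6 GFP- cells. Among the 6 genes, *Hey2* and *Heyl* were by this measure the most alike pair (0.46), followed by *Hey1* and *Hey2* (0.58), and *Hes5* and *Hes6* the least alike (2.75). The RMS difference takes in the size of the differences between libraries as well as their direction. By Pearson correlation of the same log2 values, *Hes1* and *Hes5* were the most alike (0.975) and *Hes6* and *Heyl* the least (-0.018). The libraries are shared by all these comparisons and form 4 groups, so the values are a description.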

How the data were processed

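RNA-seq was performed by the authors on GFP+ and GFP- cells sorted from Lfng-GFP cochleas. For each library a raw count per Ensembl gene was deposited, made by the authors by aligning paired reads to mm9 (NCBIM37) with TopHat (1.4.0 per the submitters' processing notes) and counting with HTSeq, whose version and mode are not given in the sources used here. The HTSeq lines that name no gene were left out, and gene counts were 64.7% to 76.2% of each library's listed total. By the study's methods, the libraries from freshly dissected cochleas used more cells than the limit under which cDNA was amplified first. Depth limits the precision of low genes.

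Symbols and positions were taken from an NCBIM37 annotation (34391 of 36536 genes matched) and promoters from RefSeq (GRCm38.p6). Counts were tested with edgeR 4.0.16 in R 4.3.3 (filterByExpr with minimum count 10 and minimum total count 15, TMM, quasi-likelihood test, Benjamini-Hochberg adjustment over all genes tested), each comparison on its 4 libraries and the interaction on all 8. The standard error is the absolute log2 fold change divided by the square root of F. Levels were scaled to gene totals and tests to TMM. Library totals in place of TMM moved the log2 fold changes of the 6 genes by -0.20 to -0.19 from P1 to P6 in GFP- cells (median of all genes from -0.02 to -0.21), by 0.11 to 0.12 in the interaction (0.03 to 0.16) and by -0.11 to 0.01 elsewhere. The fit was tested on simulated data. Figures were drawn with matplotlib 3.10.9.

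The 6 genes and all lists were chosen with earlier results of these data known. The text names the 6 genes, listed genes with p and adjusted p below 0.01 and a fold change above 4, and the 3 genes nearest to each of the 6 in pattern (pseudocount 1 CPM). Other genes were named after their values were seen. The alternatives were DESeq2 1.42.0 size factors, library totals, the DESeq2 test, no filter, all 8 libraries, glmTreat, a replicate block and leaving out each replicate.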

Additional observations from a re-analysis of the deposited data

Results flagged for a closer look

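For *Heyl*, the log2 ratio of GFP+ to GFP- cells was 1.35 higher at P6 than at P1 (SE 0.19, adjusted p = 0.00702 in edgeR's interaction test over 8 libraries). The GFP+ libraries were at 268 and 258 CPM at P1 and at 466 and 448 CPM at P6, and the GFP- libraries at 47.8 and 56.3 CPM and at 31.2 and 33.7 CPM. Over 13 alternatives the difference stayed between 1.29 and 1.51 and its adjusted p between 9.52e-08 and 0.0606, past the threshold in 6 of them and not in 7, of which 6 left out a library.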

How the results depend on the processing

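Of 330 log2 fold changes of the 6 genes under an alternative, 278 kept their direction and their side of the threshold, 16 lost the call, 34 gained it and 2 turned, both for *Hey2* from P1 to P6 in GFP+ cells (-0.0077 with library totals, and -0.073 to 0.23 with a replicate left out, the lowest without P6 GFP+ replicate 1). The number of the 6 genes that passed was 5 at P1 and 5 to 6 with a replicate left out. At P6 it was 4, and 0 to 5 with a replicate left out (0 to 4 past 4-fold, and 3 by glmTreat), the 0 without P6 GFP- replicate 2. From P1 to P6 in GFP+ cells it was 1 by edgeR, 4 by the DESeq2 test, 4 with no filter, 3 with all 8 libraries and 1 to 5 with a replicate left out. By glmTreat 0 of them were past 4-fold, beside 4 with an unadjusted p below 0.05 by the edgeR test. In GFP- cells it was 1, and 0 with library totals or all 8 libraries (4 with an unadjusted p below 0.05 in each), 2 by the DESeq2 test, 2 with no filter (1 past 4-fold) and 0 to 3 with a replicate left out (0 to 1 past 4-fold). In the interaction it was 1, and 2 by the DESeq2 test, 2 with no filter and 0 to 2 with a replicate left out. A fit with a replicate left out holds 1 library in a group, and its number of calls over all genes moved as well. The cause of these moves was not tested.

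The replicate numbers are the only link between the groups, and the replicate differences had a correlation across genes of 0.0256 between fractions at P1, 0.0604 at P6, and between ages -0.123 in GFP+ and -0.325 in GFP- cells. With the replicate block 0 of the 6 genes passed the interaction by edgeR (4 with an unadjusted p below 0.05, *Heyl* at an adjusted p of 0.0355), and the other comparisons had the same number of calls as without it. Over all genes the block gave 6363 calls at P1, 2837 at P6, 1079 between the ages for GFP+, 1040 for GFP- and 35 in the interaction. A crossed block, chosen after seeing the data, gave 2 of the 6 genes and 1254 of all genes for GFP+, and 1 and 3063 for GFP-.

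The summed level of the 6 genes in P6 GFP- cells was 144 CPM, 154 with TMM and 152 with DESeq2 size factors. Over all genes, the number passed was 6972 at P1 (3675 to 9798 over the alternatives), 2363 at P6 (0 to 7765), 828 between the ages for GFP+ (137 to 7531), 1397 for GFP- (249 to 3993) and 372 in the interaction (28 to 2400). The share of these that were higher moved from 59.8% to 71.4% at P6, from 68.3% to 49.5% in GFP- cells and from 48.9% to 60.2% in the interaction when library totals replaced TMM.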
